A study of Macaca mulatta with 2 samples.

Results

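Splicing factors of 5 gene families were examined in the macaque optic nerve. They were found as the rows of the expression table whose symbol starts with *HNRNP*, *SRSF*, *RBFOX*, *CELF* or *MBNL*, which gave 46 of the 16684 genes listed. Of these, 22 were *HNRNP* genes, 12 *SRSF*, 3 *RBFOX*, 6 *CELF* and 3 *MBNL*, and 44 of the 46 were above 0 in at least 1 library. The rule that picks members within these families reads symbols and no measured value. Bulk RNA-seq was performed on optic nerves of wild-type, untreated rhesus macaques (*Macaca mulatta*), 1 condition with 2 libraries named Rep1 and Rep2. The methods of the study give a 12-year-old male as the source, with eyes collected after death, whereas the design text deposited with the data speaks of more than 1 macaque, so the libraries may or may not share an animal. Levels are in TPM, a share of all length-corrected reads of a library, and they can be compared between genes. A level sums all spliced forms of a gene, so the use of single exons was not measured. In whole tissue, fewer cells of a type and less RNA per cell cannot be told apart.

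Pre-mRNA splicing is carried out by the spliceosome, and regulatory proteins bound to exons and introns decide which splice sites it uses. SR proteins, the products of the *SRSF* genes, bind exons through RNA recognition motifs and promote their inclusion through a tail rich in arginine and serine, which kinases phosphorylate. Heterogeneous nuclear ribonucleoproteins (hnRNPs) coat nascent RNA, often work against SR proteins and also guide export, transport and decay of mRNA. The RBFOX, CELF and MBNL proteins are tissue-dependent regulators known from neurons and muscle. Optic nerve tissue is made of axons, oligodendrocytes, astrocytes, microglia, vessels and meninges, and oligodendrocytes splice several myelin transcripts in a regulated way.

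The families differ in the coding sequence itself. In the longest annotated protein of each gene, neighbouring arginine and serine residues (RS or SR) numbered from 4.07 to 23.5 per 100 residues in the *SRSF* family, with a median of 17.6, and at most 2.55 in the *HNRNP* genes, 1.08 in *MBNL*, 1.05 in *RBFOX* and 0.755 in *CELF*. Arginine-glycine-glycine triplets, another RNA-binding element, occurred at least 2 times in 11 of the 22 *HNRNP* genes, with the highest number of 8 in *HNRNPR*, and in 2 of the *SRSF* genes. The count was 0 for *HNRNPA1* but 3 for *HNRNPA1L2*, whose coding sequence is 98.6% identical. The reason was not tested, so the number of 11 genes is uncertain. Shown here are the 20 codons richest in these elements within 1 coding exon, from the RefSeq annotation of Mmul_10, for the most abundant SR gene, for the SR gene not detected in Rep1 and for *HNRNPU*. Capitals mark codons of RS or SR pairs in the *SRSF* genes and of arginine-glycine-glycine in *HNRNPU*.
SRSF5, codons 185 to 204, chr7:131919271-131919330, plus strand: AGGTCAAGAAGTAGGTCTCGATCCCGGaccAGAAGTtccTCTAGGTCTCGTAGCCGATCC
SRSF12, codons 111 to 130, chr4:84293588-84293647, plus strand: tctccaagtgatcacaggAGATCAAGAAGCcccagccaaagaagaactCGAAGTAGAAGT
HNRNPU, codons 698 to 717, chr1:4243230-4243289, plus strand: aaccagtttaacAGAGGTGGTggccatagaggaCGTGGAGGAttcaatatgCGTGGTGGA
In *SRSF5* 18 of the 20 codons belonged to 15 such pairs, in *SRSF12* 8 codons to 6 pairs, and in *HNRNPU* 9 codons to 3 triplets.

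The libraries differed strongly, so each level is given for both. Rep1 was shallower, since a single read there stood for the same TPM as 17.2 reads of Rep2. Markers of oligodendrocytes summed to 45982 TPM in Rep1 against 212174 TPM in Rep2, and those of astrocytes to 1085 and 7257 TPM, so the nerve's own glia were present in both. Photoreceptor markers, in contrast, summed to 3710 TPM in Rep1 against 9.02 TPM in Rep2. Of these 10 markers, 7 were at least 2-fold higher in Rep1, against 18.2% of all genes averaging 1 TPM or more. Only *CRX* was listed at 0 in Rep2. Of 8 neuron markers, 7 averaged 1 TPM or more. Among these, 3 (42.9%) were at least 2-fold higher in Rep1 and 1 (14.3%) lower, against 18.2% and 58.7% of all genes. The higher ones included *SNAP25* (1121 and 4.99 TPM) and *SYT1* (769 and 11.8 TPM). *SLC17A6* was listed at 0 in both. With 1 condition and 2 libraries no test of a difference was possible, and every difference described is one between Rep1 and Rep2.

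The splicing factors were the reverse of the general pattern, being higher in Rep1. Together they took 38930 TPM in Rep1, 3.89% of the library, and 4186 TPM in Rep2, 0.419%. The median member stood at 416 TPM in Rep1 against 66.1 TPM in Rep2, and the median mean level was 258 TPM, against 9.55 TPM for all genes above 0. Of the 44 members, all averaging 1 TPM or more, 31 (70.5%) were at least 2-fold higher in Rep1 on the log2(TPM + 1) scale, whereas 18.2% of all 11754 genes averaging that much were. Only 5 members (11.4%) were at least 2-fold lower in Rep1, against 58.7% of those genes. The log2 difference (Rep1 minus Rep2) had a median of 2.56 over the members and of -1.07 over all genes above 0. When the libraries were scaled by the median of ratios, which corrects a general log2 shift of -1.19, 37 members were higher by that measure (30.0% of all genes) and 2 were lower (38.4% of all genes). Ranks within a library do not depend on scaling, and 38 of the 44 members held a higher percentile in Rep1. Their median percentile was 97.2 there and 83.5 in Rep2, against 50.0 in both for all genes above 0. The share of all genes with a higher percentile in Rep1 was not counted. More genes were tied at 0 in Rep1 (6425) than in Rep2 (2082), which also bears on percentiles.

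The read numbers behind each value could be bounded from below for 43 members, and 27 of them rested on at least 100 reads in both libraries, while for 6 the lower bound in Rep1 was under 10. Among the 44 members above 0 in Rep2, 1 was listed at 0 in Rep1 (2.27%), against 30.4% of all genes above 0 in Rep2. The members were also more abundant, with a median in Rep2 of 66.1 TPM against 11.7 TPM for all genes above 0. The share among genes of like level was not counted. The order of the members was partly shared, with a Spearman rho of 0.688 between the libraries across the 44 genes. That was near the rho of 0.719 over all genes above 0, so it is not particular to the members. The Pearson r of log2(TPM + 1) over the members was 0.716. The 44 genes come from the same libraries and are not independent. Of the 10 highest members, 5 were the same in both. In Rep1, 7 members were among the 100 highest genes, and in Rep2 none was.

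**Figure D1:**
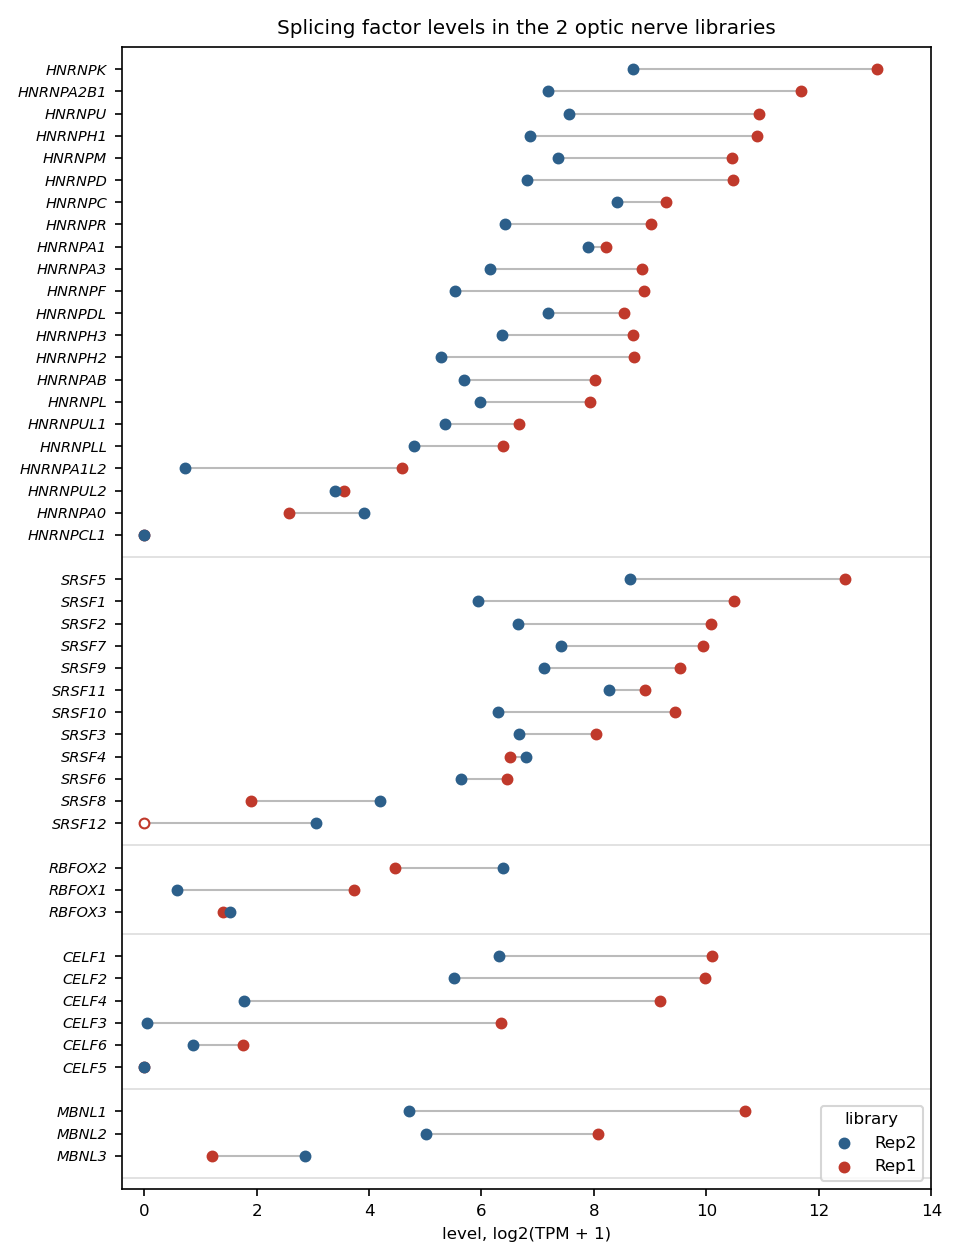
Level of each of the 46 splicing factor genes on the log2(TPM + 1) axis in Rep1 (red) and Rep2 (blue), by family and in order of the mean, with an open circle for a gene listed at 0 in Rep1 only. In 37 genes the red point lies to the right, while 3547 of all 14693 genes above 0 were higher in Rep1. The 7 genes with the blue point to the right include *RBFOX2*, *SRSF8*, *SRSF12*, *HNRNPA0* and *MBNL3*, while *HNRNPCL1* and *CELF5* were at 0 in both.

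Among the hnRNP genes, *HNRNPK*, whose protein binds C-rich RNA through KH domains, was the most abundant. It lies on chromosome 15 from 99289333 to 99301980 (minus strand). It reached 8433 TPM in Rep1 against 413 TPM in Rep2, or 4423 ± 5671 TPM (SD, n = 2), resting on at least 1594 and 1341 reads. It ranked 10th among all genes in Rep1 and 260th in Rep2, and it was the highest member in both. *HNRNPK* made up 21.7% of the members' sum in Rep1 and 9.86% in Rep2.

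*HNRNPA2B1*, on chromosome 3 from 88945368 to 88956295, encodes a protein known to carry myelin basic protein mRNA along oligodendrocyte processes. It was at 3286 TPM in Rep1 against 145 TPM in Rep2, a ratio of 22.7. Its close relative *HNRNPA1*, which favours exon skipping, behaved differently, with 296 TPM in Rep1 against 236 TPM in Rep2 and a mean of 266 ± 43.0 TPM (SD, n = 2). *HNRNPA3* was at 460 and 69.99 TPM. *HNRNPA0*, an intronless relative, was 1 of the few genes lower in Rep1, at 4.996 TPM against 14.1 TPM in Rep2, resting on at least 5 and 242 reads. Scaling by the median of ratios changed the last comparisons, putting *HNRNPA1* at 448 and 156, at least 2-fold higher in Rep1, and *HNRNPA0* at 7.55 and 9.31, within 2-fold.

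*HNRNPU*, a nuclear matrix protein that binds chromatin and RNA, stood at 1957 TPM in Rep1 against 187 TPM in Rep2, supported by at least 3096 and 5075 reads. Its relatives were much lower and closer between the libraries, *HNRNPUL1* at 101 and 39.9 TPM and *HNRNPUL2* at 10.7 and 9.52 TPM. The H/F proteins bind runs of G in RNA. *HNRNPH1* was at 1898 TPM in Rep1 against 115 TPM in Rep2, *HNRNPF* at 471 and 45.0 TPM, *HNRNPH2* at 418 and 38.03 TPM and *HNRNPH3* at 415 and 81.0 TPM. All 4 were higher in Rep1, by ratios from 5.12 in *HNRNPH3* to 16.4 in *HNRNPH1*.

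*HNRNPM* reached 1406 TPM in Rep1 against 162 TPM in Rep2, and *HNRNPD*, which binds AU-rich elements of unstable mRNAs, 1413 and 111 TPM. *HNRNPC*, which binds U tracts as a tetramer, differed less, with 618 TPM in Rep1 against 339 TPM in Rep2, and was the third highest member in Rep2. The remaining genes at least 2-fold higher in Rep1 were *HNRNPR*, *HNRNPDL*, *HNRNPAB*, *HNRNPL*, *HNRNPLL* and *HNRNPA1L2*, with log2 differences from 1.34 in *HNRNPDL* to 3.87 in *HNRNPA1L2*. In all, 17 of the 21 hnRNP genes averaging 1 TPM or more (81.0%) were at least 2-fold higher in Rep1, against 18.2% of all genes. Lower was 1 (4.76%), against 58.7% of all genes, and 3 lay within 2-fold. *HNRNPCL1* was listed at 0 in both libraries.

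Several hnRNP transcripts have near-identical copies elsewhere in the genome. At least 80% of the coding sequence of *HNRNPA1* matched 12 other loci of Mmul_10 at 90% identity or more, all aligning without a gap for introns, and 1 of them was *HNRNPA1L2*, 98.6% identical and within *WDFY2*. Such loci numbered 9 for *HNRNPA1L2*, 5 for *HNRNPA3*, 4 for *HNRNPC*, 2 for *HNRNPK* and 1 for *HNRNPH2*. In the *SRSF* family, *SRSF3* had 3, of which 1 was identical over the aligned coding sequence, and *SRSF1*, *SRSF9* and *SRSF10* had 1 each. Reads shared with these copies could have been assigned to either or dropped, so the levels of these 10 genes, *HNRNPA1* and *HNRNPA1L2* (23.1 and 0.646 TPM) above all, are uncertain to that extent.

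*SRSF5*, on chromosome 7 from 131914215 to 131920084, was the most abundant SR gene, at 5684 TPM in Rep1 against 401 TPM in Rep2 (3042 ± 3736 TPM, SD, n = 2), with at least 2534 and 3069 reads. *SRSF1*, the prototype of the family, was at 1446 TPM in Rep1 against 60.4 TPM in Rep2, the largest ratio among the SR genes, at 23.9. *SRSF2* was at 1080 and 99.9 TPM, *SRSF7*, which carries a zinc knuckle, at 982 and 170 TPM, and *SRSF9* at 741 and 138 TPM. *SRSF10*, which acts as a repressor when it is dephosphorylated, was at 692 and 77.4 TPM. *SRSF3*, the smallest SR protein, was at 262 and 101 TPM. These 7 genes were all at least 2-fold higher in Rep1, which is 58.3% of the 12 SR genes, against 18.2% of all genes.

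Another 3 SR genes differed less than 2-fold. *SRSF11* was at 477 TPM in Rep1 against 307 TPM in Rep2, *SRSF6* at 86.9 and 48.6 TPM and *SRSF4* at 89.6 and 110 TPM. The mean of *SRSF4* was 99.7 ± 14.3 TPM (SD, n = 2). The longest annotated proteins of *SRSF4* and *SRSF6* held 115 and 74 RS or SR pairs, the highest numbers among the members.

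The 2 lowest SR genes were higher in Rep2. *SRSF8*, a primate copy of *SRSF2* made from its mRNA, was at 2.74 TPM in Rep1 against 17.3 TPM in Rep2, on at least 6 and 653 reads. *SRSF12*, a relative of *SRSF10* with the sparser RS stretch printed above, had a value of 0 in Rep1 and of 7.28 TPM in Rep2. Both remained at least 2-fold lower in Rep1 after scaling by the median of ratios, whereas *HNRNPA0*, *RBFOX2* and *MBNL3* did not.

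**Figure D2:**
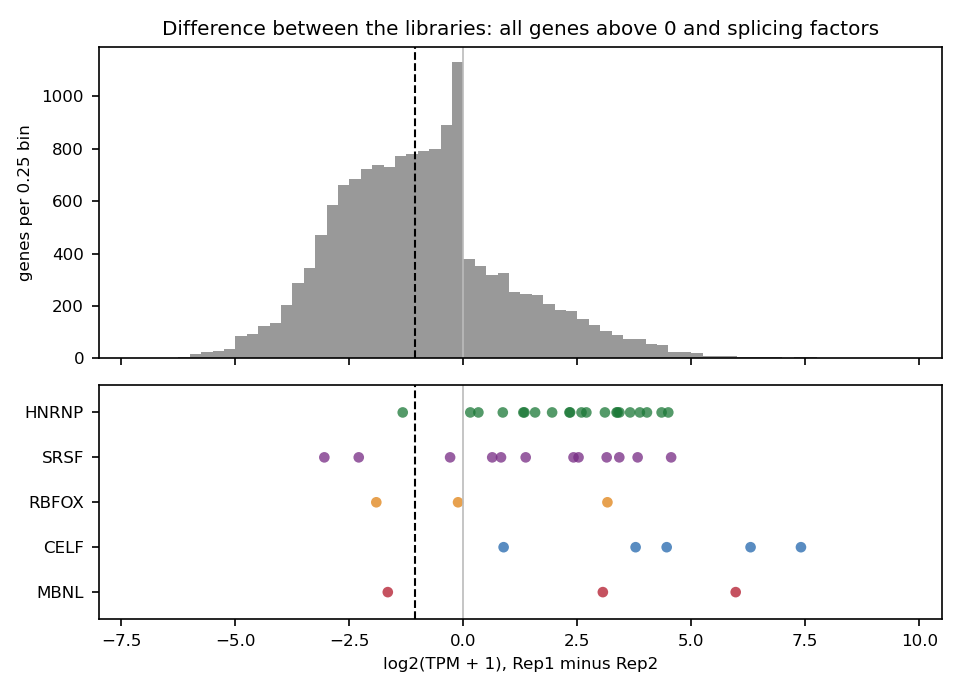
Upper panel, number of genes per 0.25 bin of the difference in log2(TPM + 1), Rep1 minus Rep2, for the 14693 genes above 0 in at least 1 library. Lower panel, the same difference for each detected splicing factor by family, with the dashed line at the median of all genes (-1.07) and the grey line at 0. To the right of 0 lie 37 of the 44 splicing factors, against 3547 of the 14693 genes.

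The tissue-dependent families differed from one another. Of *CELF* genes averaging 1 TPM or more, 4 of 5 (80%) were at least 2-fold higher in Rep1 and 0 lower. Of *MBNL* genes 2 of 3 (66.7%) were higher and 1 lower, and of *RBFOX* genes 1 of 3 (33.3%) was higher and 1 lower. Among all genes these shares were 18.2% higher and 58.7% lower. *RBFOX2*, the broadly expressed RBFOX gene, on chromosome 10 from 15512914 to 15808176, was at 21.1 TPM in Rep1 against 82.2 TPM in Rep2 (51.6 ± 43.2 TPM, SD, n = 2), with at least 29 and 1937 reads. It was the most abundant RBFOX gene in both libraries, although it was 3.89 times higher in Rep2. Median-of-ratios scaling put it at 31.9 and 54.4, a log2 difference of -0.75 that is within 2-fold. *RBFOX1*, known from neurons and muscle, was at 12.3 TPM in Rep1 against 0.491 TPM in Rep2. *RBFOX3*, which encodes the neuronal nuclear antigen NeuN, was low in both, with 1.64 TPM and no fewer than 2 reads in Rep1 and 1.87 TPM in Rep2.

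*CELF1* and *CELF2*, the CELF genes found in most tissues, were both abundant. *CELF1*, on chromosome 14 from 18201348 to 18293379, was at 1090 TPM in Rep1 against 78.4 TPM in Rep2, and *CELF2*, on chromosome 9 from 11603734 to 12468374, at 1005 and 44.7 TPM. The other CELF genes are known mainly from the nervous system. *CELF4* was at 577 TPM in Rep1 against 2.41 TPM in Rep2, on at least 237 and 17 reads, with a difference of 7.41 in log2(TPM + 1). *CELF3* was at 80.3 TPM in Rep1 against 0.0314 TPM in Rep2, where it rested on at least 1 read. *CELF6* was at 2.37 and 0.829 TPM, with at least 1 read in Rep1, and *CELF5* was listed at 0 in both. In Rep2 these 4 genes thus stood at 2.41 TPM or less, while in Rep1 *CELF4* and *CELF3* were well above that.

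*CELF3*, *CELF4* and *RBFOX1* were higher in Rep1, as were most members, most photoreceptor markers and some neuron markers. With 2 libraries all genes higher in Rep1 vary together, so no link between them can be read from this. Of other members known from neurons, *CELF6* (2.37 and 0.829 TPM) and *RBFOX3* (1.64 and 1.87 TPM) lay within 2-fold on the log2(TPM + 1) scale. Scaling by the median of ratios put *CELF6* at 3.59 and 0.548, a log2 difference of 1.57 that is at least 2-fold. It left *RBFOX3* within 2-fold, at a log2 difference of 0.64. *CELF5* was at 0 in both. The photoreceptor list summed to 3710 TPM in Rep1. Of 8 neuron markers, 3 (*SNAP25*, *SYT1* and *STMN2*) were at least 2-fold higher there. However, *THY1* was at 203 TPM in Rep1 against 1535 TPM in Rep2 and *NEFL* at 3.63 and 3.65 TPM. Skeletal muscle markers summed to 8.09 TPM in Rep1 against 29.3 TPM in Rep2, with *MYH1* and *MYH2* listed at 0 in both. The part of retinal or neuronal RNA in the levels of the splicing factors was not tested.

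*MBNL1*, a zinc finger protein that expanded CUG repeats sequester in myotonic dystrophy, lies on chromosome 2 from 54504300 to 54725861. It was at 1651 TPM in Rep1 against 25.3 TPM in Rep2, a ratio of 65.3, on at least 4919 and 1294 reads. *MBNL2*, the paralog prominent in brain, was at 269 TPM in Rep1 against 31.4 TPM in Rep2. *MBNL3* was low in both libraries, at 1.31 TPM in Rep1 against 6.28 TPM in Rep2, and rested on at least 2 reads in Rep1.

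Because a ratio of genes within a library depends little on the scaling of that library, 20 pairs of genes were compared in this way. Both genes of a pair came from the same family by symbol, and not all pairs, such as *HNRNPC* and *HNRNPK*, are close relatives. It is not free of scaling for low genes, since 1 TPM was added to each level. With 0.1 TPM added instead, the mean log2 ratio of *SRSF10* to *SRSF12* moved from 6.34 to 8.07. The order of the pair was the same in both libraries for 15 pairs and turned for 5. *MBNL1* was 6.12 times as abundant as *MBNL2* in Rep1 but 0.812 times in Rep2, on the TPM + 1 scale. *HNRNPA2B1* exceeded *HNRNPA1* 11.05 times in Rep1 and was 0.616 times as abundant in Rep2. The other pairs that turned were *HNRNPD* and *HNRNPDL* (3.82 and 0.766 times), *SRSF1* and *SRSF9* (1.95 and 0.442 times) and *SRSF2* and *SRSF11* (2.26 and 0.328 times). For these 5 pairs the more abundant gene thus depended on the library.

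The most stable ratios were within the H/F and L groups. *HNRNPH1* was above *HNRNPH2* by a log2 ratio of 1.88 ± 0.43 (SD, n = 2) and above *HNRNPF* by 1.67 ± 0.47. *HNRNPL*, which binds CA repeats, was above *HNRNPLL*, known for its part in lymphocyte splicing, by 1.36 ± 0.26. *CELF2* was below *CELF1* in both libraries, with a mean log2 ratio of -0.46 ± 0.48 that did not exceed its spread. *RBFOX2* was above *RBFOX3* by 3.96 ± 1.27 and above *RBFOX1* by 3.27 ± 3.59, the latter within the spread. The mean ratio exceeded its SD in 11 of the 20 pairs.

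**Figure D3:**
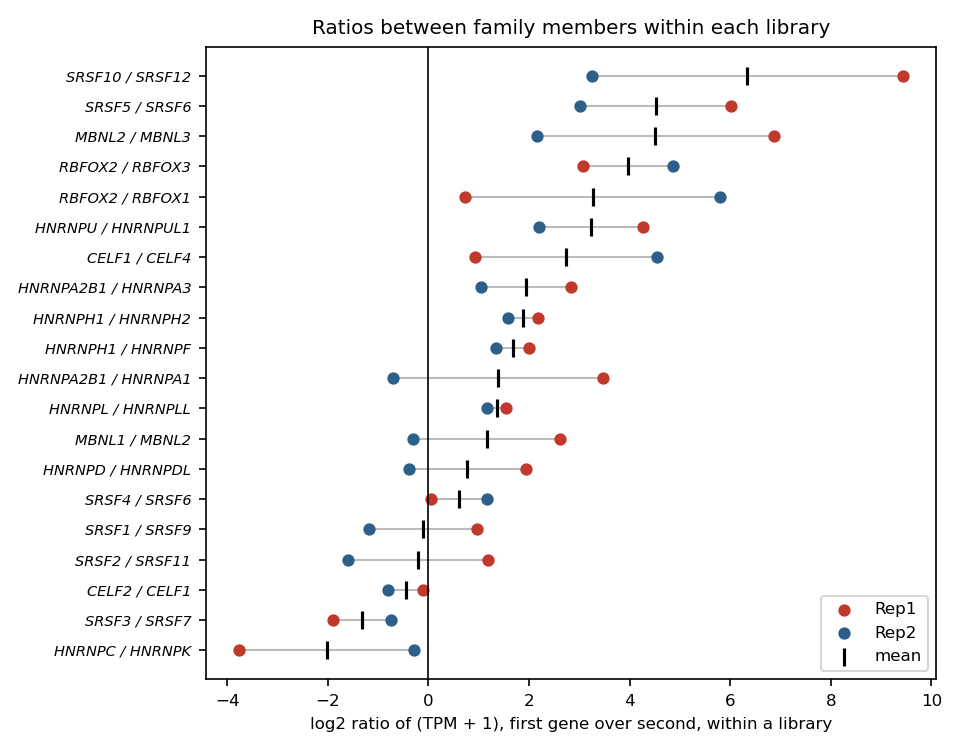
Log2 ratio of TPM + 1 of the first gene over the second within Rep1 (red) and Rep2 (blue) for 20 pairs of genes of the same family, ordered by the mean (black tick), with the black line at equal levels. The points lie on opposite sides of the line for 5 pairs, among them *MBNL1* and *MBNL2*, and close together for *HNRNPL* and *HNRNPLL*.

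The factors that act on SR proteins were higher in Rep1 as well. Of 11 kinases and import receptors, 10 averaged 1 TPM or more, all of them at least 2-fold higher in Rep1, against 18.2% of all genes, with a median log2 difference over the list of 1.87. The kinases *CLK3* (745 TPM in Rep1 against 53.9 TPM in Rep2), *SRPK2* (583 and 120 TPM) and *CLK1* (283 and 81.5 TPM), which phosphorylate the RS tail, were the highest. The others were *SRPK1*, *CLK2*, *CLK4*, *DYRK1A*, *PRPF4B*, *TNPO1*, which imports hnRNP A1 into the nucleus, and *TNPO3*, which imports SR proteins. *SRPK3*, a kinase known from muscle, had 1.27 TPM in Rep2 and none in Rep1.

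Of the SR-related proteins, 7 of the 9 that averaged 1 TPM or more were at least 2-fold higher in Rep1 and 1 was lower, against 18.2% and 58.7% of all genes. *SRRM2* (3913 and 690 TPM) and *SON* (1088 and 200.2 TPM), the scaffolds of nuclear speckles, and *PNN* (1038 and 201 TPM) were the highest, and *TRA2B*, *SRRM1*, *ACIN1* and *SRRM3* were the others. *RNPS1*, a part of the exon junction complex, was lower in Rep1, at 58.0 TPM against 145 TPM, but after scaling by the median of ratios none of this list was at least 2-fold lower. *SRRM4*, which drives microexon inclusion in neurons, was not seen in Rep1 and reached 0.717 TPM in Rep2.

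Other regulators of splice site choice shared the pattern, with 29 of 39 (74.4%) at least 2-fold higher in Rep1 and 4 (10.3%) lower, against 18.2% and 58.7% of all genes. *QKI*, which controls splicing and transport of myelin mRNAs, was at 2633 TPM in Rep1 against 493 TPM in Rep2. *MATR3* led this list (3843 and 521 TPM), followed by *RBM39* (3040 and 478 TPM). *PTBP2*, the neuronal paralog of *PTBP1*, was at 361 TPM in Rep1 against 11.7 TPM in Rep2, while *PTBP1* was at 31.6 and 32.6 TPM. Like most of this list, *NOVA1* (173 and 24.1 TPM), *NOVA2* (11.3 and 1.15 TPM) and *ELAVL4* (39.0 and 0.795 TPM), known from neurons, were higher in Rep1. *ELAVL3* was within 2-fold, at 9.36 and 7.62 TPM. The lower bound in Rep1 was 4 reads for *NOVA2* and 1 for *ELAVL3*. Not higher there in TPM were *SRRM4*, at 0 and 0.717 TPM, and *RBFOX3*, at 1.64 and 1.87 TPM. Both lie near the floor of the shallower Rep1, where *RBFOX3* rested on at least 2 reads. A value of 0 in Rep1 was also found for 30.4% of all genes above 0 in Rep2. Scaling by the median of ratios put *RBFOX3* at 2.49 and 1.24, within 2-fold on the log2 scale used.

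Among the others at least 2-fold higher in Rep1 were the C-rich RNA binders *PCBP1*, *PCBP2*, *PCBP3* and *PCBP4*, *EWSR1*, *TARDBP*, the paraspeckle genes *NONO* and *PSPC1*, and *RBM5*, *RBM25*, *TIA1*, *TIAL1*, *KHDRBS1*, *KHDRBS2*, *KHDRBS3*, *MSI1*, *MSI2*, *ELAVL1*, *ELAVL2*, *SYNCRIP* and *PTBP3*. The log2 differences of the 29 genes ran from 1.04 to 6.96. *SFPQ*, also a paraspeckle gene, was within 2-fold, at 469 TPM in Rep1 against 449 TPM in Rep2. Lower in Rep1 were *RALY* (29.1 and 248 TPM), a relative of *HNRNPC*, its paralog *RALYL*, *RBM38* and the muscle regulator *RBM24* (1.499 and 5.50 TPM). The epithelial regulator *ESRP1* had 0.462 TPM in Rep1 and was listed at 0 in Rep2.

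Of 53 listed subunits of the core spliceosome, 12 (22.6%) were at least 2-fold higher in Rep1 and 23 (43.4%) lower, against 18.2% and 58.7% of all genes, with a median log2 difference of -0.39 against -1.07. The higher genes were *SF3B1* (5325 and 382 TPM), the branch point subunit of the U2 particle, the helicase *DHX15* (1080 and 57.0 TPM), the branch point binding protein *SF1* (770 and 93.3 TPM), and *SF3B2*, *SNRPD1*, *EFTUD2*, *SF3A1*, *SF3B3*, *SART1*, *PRPF3*, *PRPF19* and *U2AF2*. Of the Sm and LSm ring proteins 9 of 13 (69.2%) were at least 2-fold lower, a share near that of all genes, and of the SF3 subunits 4 of 8 were higher and 2 lower. Grouping the spliceosome in this way was done after its values were seen. Scaling by the median of ratios moved the split of the 53 subunits to 23 higher and 13 lower, against 30.0% and 38.4% of all genes. Whether more subunits were higher or lower thus depended on the scaling. Under both, the share higher was above that of all genes and the share lower was below it. Each of the other 3 lists of partners stayed mainly higher in Rep1.

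For comparison, cytoplasmic ribosomal protein genes, another set of RNA-associated genes present in every cell, followed the general pattern. Of the 81 averaging 1 TPM or more, 52 (64.2%) were at least 2-fold lower in Rep1, against 58.7% of all genes. Another 7 (8.64%) were higher, against 18.2% of all genes. They summed to 9920 TPM in Rep1 against 12822 TPM in Rep2, so the sum of the 5 splicing factor families was above that of the ribosomal proteins in Rep1 and below it in Rep2.

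**Figure D4:**
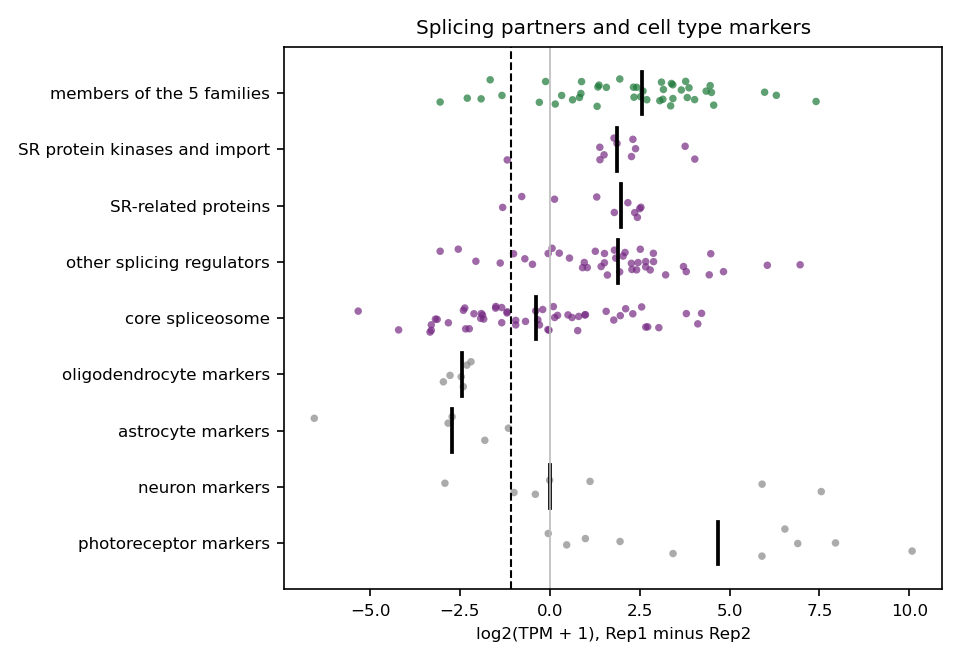
Difference in log2(TPM + 1), Rep1 minus Rep2, for each detected gene of the splicing factor families, of 4 lists of splicing partners and of 4 lists of cell type markers, with a black bar at the median of each list and the dashed line at the median of all genes (-1.07). All splicing factors and the first 3 partner lists have medians from 1.87 to 2.56, the core spliceosome lies at -0.39, and the oligodendrocyte and astrocyte markers lie at -2.43 and -2.72.

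The annotation gives these genes many spliced forms of their own. The detected members had a median of 6.5 annotated transcripts in Mmul_10, against 3 for the 14620 protein-coding genes above 0, with 50 for *CELF4*, 42 for *RBFOX2* and 38 for *CELF2*. Their longest transcripts had a median of 3587 bases, against 3201. The members lie on 20 chromosomes, and only *HNRNPH2* and *MBNL3* are on the X chromosome.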

How the data were processed

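The authors extracted total RNA, with an RNA integrity number above 8 in their methods, prepared it for sequencing with SMARTer v4 (Ultra Low Input) and checked the reads with FastQC 0.11.9. They trimmed with Trim Galore 0.6.6, mapped to Mmul_10 with STAR 2.7.1a and counted with featureCounts 1.5.3. The deposited values are the TPM of each library, normalized by the authors in R 4.2.0. Gene lengths, strand setting and treatment of multi-mapped reads are not given in the sources used here, and SMARTer amplification and the gene lengths used can both shift levels. The columns Rep1 and Rep2 could not be paired with the sample titles.

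Members were found by symbol, and the libraries were subtracted as log2(TPM + 1), so changes of low genes are understated. Counts of differences used genes averaging 1 TPM or more. Smallest whole read numbers came from the ratio of a gene's values (tolerance 1e-12), which worked for 99.9% of the 10168 genes above 0 in both libraries. These are lower bounds, and no confidence interval was derived from them. Coding sequences were taken from the RefSeq annotation of Mmul_10, in which all 46 symbols were found, and aligned to that genome with minimap2 2.31. The work used Python 3.11.15, numpy 2.4.6, pandas 2.3.3, scipy 1.17.1 and matplotlib 3.10.9, and the calculations were tested on simulated data. Named were all members of the 3 small families, the highest and lowest of the other 2, members higher in Rep1 or listed at 0, and the highest and the higher genes of each partner list. The families, and so the members, and the lists were chosen with earlier results of these data known. No p-value was computed. Some single genes of the lists are not reported here.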

Additional observations from a re-analysis of the deposited data

How the results depend on the processing

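Under 27 alternatives for the summary values, 25 stayed within the library spread or within 1.5 times and 2 moved. For the median level and the summed level that spread was so wide that the rule could hardly fail. The summed level went from 21558 to 30799 under scaling by the median of ratios and still counted as within it. The number of 25 is therefore no measure of stability. The number of members at least 2-fold lower in Rep1, 5 as given, was 2 after scaling by the median of ratios and 2 when the mean had to reach 10 TPM, the latter because low genes were left out. The number at least 2-fold higher ran from 30 to 37 and the median log2 difference from 2.39 to 3.74 over scaling by the median of ratios, removal of the 10 highest genes, other filters and a pseudocount of 0.1. Of 60 alternative values for the 20 ratios between genes of a family, 55 kept their sign. The log2 ratio changed sign in a single library for *MBNL1* to *MBNL2* (from -0.30 to 2.61), *HNRNPA2B1* to *HNRNPA1* (from -0.70 to 3.47), *HNRNPD* to *HNRNPDL* (from -0.38 to 1.93), *SRSF1* to *SRSF9* (from -1.18 to 0.96) and *SRSF2* to *SRSF11* (from -1.61 to 1.18). Each of 2 libraries lies within 1 SD of their mean, so single libraries say nothing about stability. The summed level ran from 4186 TPM in Rep2 to 38930 TPM in Rep1. The depth of Rep1 limits the lowest members, *CELF6*, *RBFOX3* and *MBNL3* above all.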
